A study of Arabidopsis thaliana with 15 samples.

Results

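The comparison described here sets leaves of ubc22 plants of the Type IV class, which are small with toothed leaf edges, against leaves of wild type (WT) plants in Arabidopsis thaliana. Its members are the 3 libraries labelled Type IV and the 3 labelled WT, of 15 libraries in all, and every locus with a mean normalized read count of at least 10 over the 15 libraries. This left 17595 of 34307 loci. The study sorted the offspring of 1 ubc22 parent by leaf size, shape and colour, and the other 9 libraries come from Type I (like WT), Type II (wide, round leaves) and Type III (narrow, long, pale leaves). All plants were Col-0, 21 days old, and were grown at 22 °C with light for 16 h a day. The labels give 3 biological replicates per group, but neither the ubc22 allele nor the number of plants in a library, and a p-value here reflects only how far libraries of a group spread, which may be technical. In such bulk RNA, fewer cells of a type and less RNA per cell cannot be told apart.

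UBC22 encodes a ubiquitin-conjugating enzyme (E2), a protein that receives activated ubiquitin and, with a ligase, passes it to a target protein or to a growing ubiquitin chain. Chains of some linkages send their targets to the 26S proteasome for breakdown, and the anaphase-promoting complex is one of the ligases that E2 enzymes serve in the cell cycle. In Arabidopsis the first letters of a gene's AGI code give its chromosome (AT4G for chromosome 4), and genes of chromosomes 4 and 2 are described apart from those of chromosomes 1, 3 and 5 below.

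The libraries held 8865955 to 13138977 reads counted in loci. Within Type IV, the chi-square per degree of freedom between replicates 1 and 2 was 6.36, against 15.7 and 19.1 with replicate 3. Within WT, it was 3.79 between replicates 2 and 3, against 18.6 and 15.7 with replicate 1. Type IV replicate 3 and WT replicate 1 thus stood apart from their groups, and no pair agreed within sampling noise. The labelled tissue was checked with 14 leaf mesophyll genes, whose summed normalized read counts were 1010441 to 1069862 in Type IV and 1002893 to 1199071 in WT. Of 18 root markers, 9 were at 0 in every Type IV library and 8 in every WT library (sums 711 to 837 and 841 to 1010), and IRT1, EXPA7 and PLT1 were at 0 in both. Of 17 seed and embryo markers 11 were at 0 in both groups, among them CRU2, CRU3 and OLEO1, and the rest summed to 16.6 to 29.5 in Type IV and 11.7 to 15.6 in WT.

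UBC22 (AT5G05080, chromosome 5, 1498438 to 1500784 in TAIR10.1) had normalized read counts of 318, 378 and 243 in Type IV leaves, against 663, 696 and 696 in WT leaves. Each Type IV library lay below each WT library, and a residual level remained in all 3. The log2 fold change was -1.15 (SE 0.15, limma, adjusted p = 9.63e-05). Types I, II and III lay between 226 and 320, and Type IV did not pass the threshold against their mean (log2 difference 0.15, adjusted p = 0.36).

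In Type IV leaves the genes of chromosome 4 were lower as a group, and by a near-equal amount along the whole chromosome. Of 2637 tested AT4G loci, 1290 fell (48.9%) and 81 rose (3.07%), with a median log2 fold change of -0.41. Genes of chromosome 2 shifted less: 562 of 2659 AT2G loci fell (21.1%) and 252 rose (9.48%), with a median of -0.11. On chromosomes 1, 3 and 5 the balance was the other way, with 1140 of 12220 loci fallen (9.33%) and 2472 risen (20.2%), and a median of 0.09. Over all 17595 loci 2816 rose (16%) and 2999 fell (17%) at a Benjamini-Hochberg adjusted p under 0.05, and the median was 0.00.

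These counts depend on how libraries are scaled, since the size factor of a library is a median of ratios over loci of all chromosomes. When libraries were scaled on AT1G, AT3G and AT5G genes, 2007 loci rose and 4005 fell, and the median of all loci moved by -0.09. On that scale AT1G, AT3G and AT5G loci were nearly balanced (1761 risen, 1711 fallen), while AT2G loci gave 178 risen and 787 fallen and AT4G loci 58 and 1499. The medians of chromosomes 4 and 2 were below 0 under each scaling tried. These were as deposited, TMM, library totals, and AT1G, AT3G and AT5G genes. The surplus of rises on chromosomes 1, 3 and 5 was also there with TMM (2472 risen, 1138 fallen) and library totals (2667 and 911). It was nearly gone only where those chromosomes' own genes set the scale, so its size depends on the scaling. Without Type IV replicate 3, 2720 loci rose and 3005 fell, and the AT4G counts were 69 risen and 1366 fallen. Without WT replicate 1, 2822 rose and 2902 fell.

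The whole distribution moved, not a few genes. Of AT4G loci 84.4% had a log2 fold change below 0, against 61.8% of AT2G loci and 39.9% of AT1G, AT3G and AT5G loci. The middle 50% of loci spanned 0.54, 0.53 and 0.52 on the log2 scale in the 3 sets, so that their widths were alike. All 3 Type IV values lay below all 3 WT values at 1405 AT4G loci (53.3%) and above them at 104, where 21.9% and 21.4% of all tested loci did so.

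**Figure D1:**
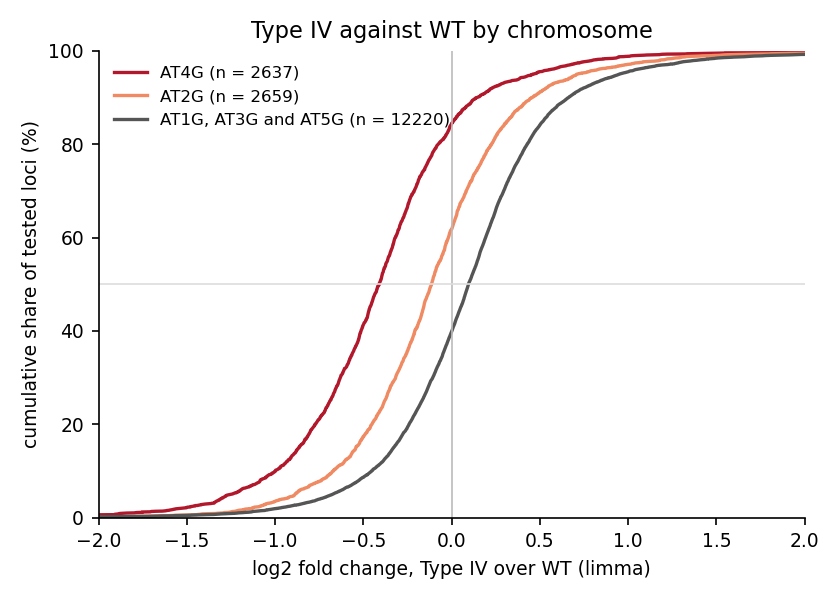
Cumulative share of tested loci (vertical axis, percent) by log2 fold change of Type IV over WT (horizontal axis, limma, drawn from -2 to 2), for AT4G, AT2G and AT1G, AT3G and AT5G loci. The AT4G curve lies left of the others over its middle range and crosses 50% at -0.41, the AT2G curve at -0.11 and that of AT1G, AT3G and AT5G loci at 0.09.

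To compare single libraries, each library's median log2 difference from the mean of the WT libraries was taken over the genes of a chromosome, less the same median over AT1G, AT3G and AT5G genes. For chromosome 4 it was -0.59, -0.58 and -0.37 in Type IV replicates 1, 2 and 3, against 0.01, -0.01 and -0.01 in the WT libraries. On a linear scale these are ratios of 0.666, 0.669 and 0.772 in Type IV. Each Type IV library was far below each WT library, and replicate 3 was the least shifted.

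For chromosome 2 the values were -0.26, -0.24 and -0.14 in Type IV, against -0.02, 0.01 and 0.00 in WT, or ratios of 0.837, 0.848 and 0.906 in Type IV. Replicate 3 was again the least shifted, and the groups did not overlap. The chromosome 2 shift was 0.439, 0.409 and 0.381 of the chromosome 4 shift in the same library. The share of nuclear reads from chromosome 4 was 10.2%, 10.1% and 11.5% in Type IV, against 14.8%, 14.4% and 14.3% in WT. Chromosome 2 held 13.9%, 14.0% and 14.9% in Type IV, against 14.8%, 14.8% and 15.0% in WT.

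The lower level of chromosome 4 set Type IV apart from all other libraries of the series. Relative to AT1G and AT5G genes alone, a baseline added because AT3G genes are raised in Type III, the chromosome 4 median was -0.58, -0.58 and -0.36 in Type IV, against -0.01 to 0.01 in the other 12 libraries. For chromosome 2 the same measure was -0.26, -0.23 and -0.13 in Type IV, against 0.53 to 0.58 in Type II and -0.02 to 0.01 in Type I, Type III and WT.

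**Figure D2:**
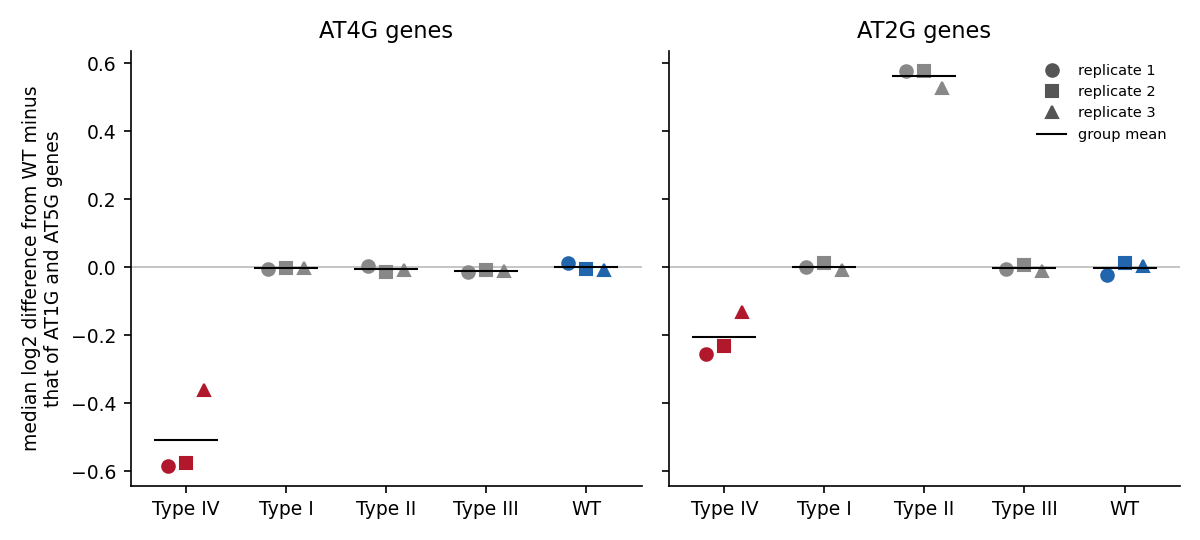
Median log2 difference from WT of AT4G genes (left) and AT2G genes (right) less that of AT1G and AT5G genes (vertical axis), for each library of 5 groups, with the group mean as a bar; a WT library is set against the other WT libraries. Type IV lies at -0.58 to -0.36 for AT4G genes, where the other 12 libraries lie at -0.01 to 0.01.

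The shift ran over the whole length of both chromosomes. In windows of 100 tested loci in gene order, all 26 windows of chromosome 4 were below 0 in each Type IV library, at -0.70 to -0.48 in replicate 1, -0.75 to -0.48 in replicate 2 and -0.54 to -0.25 in replicate 3. The same windows lay between -0.14 and 0.18 in the WT libraries. All 26 windows of chromosome 2 were below 0 in each Type IV library as well, at -0.35 to -0.13, -0.34 to -0.13 and -0.26 to -0.07. Windows of chromosomes 1, 3 and 5 lay on both sides of 0 in Type IV, between -0.20 and 0.12. The shift was alike at low and high levels: split into 3 equal sets by mean value, the lowest and the highest set of genes both gave a mean chromosome 4 shift of -0.51 in Type IV.

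**Figure D3:**
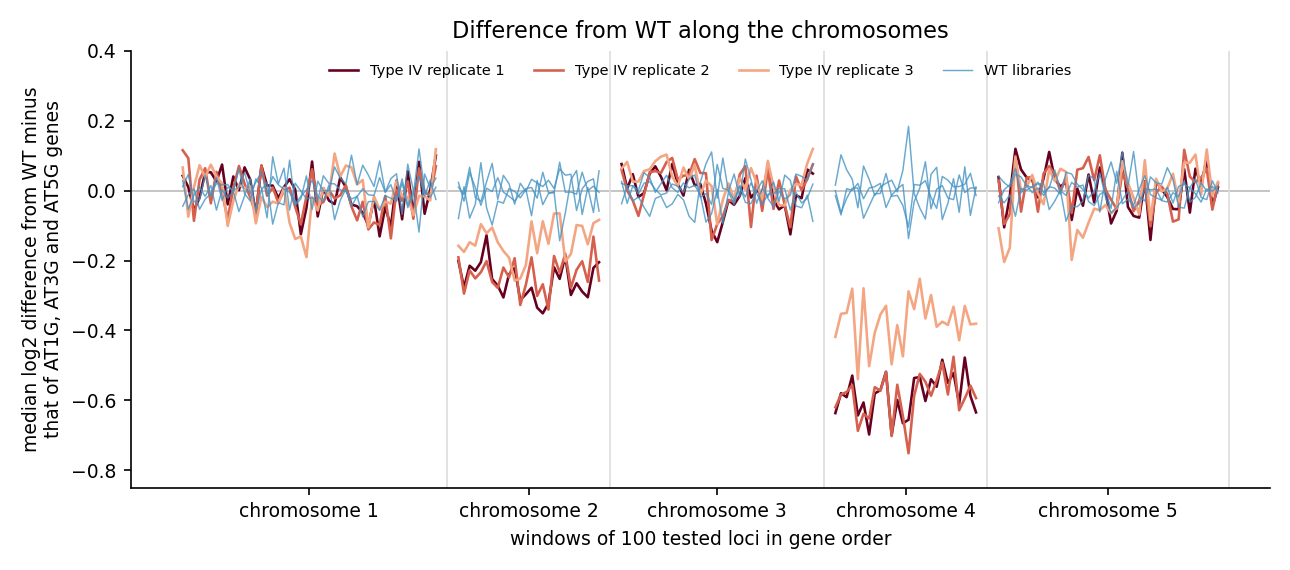
Median log2 difference from WT less that of AT1G, AT3G and AT5G genes (vertical axis) in windows of 100 tested loci in gene order along chromosomes 1 to 5 (horizontal axis), 1 line for each Type IV library and thin lines for the WT libraries. The 3 Type IV lines lie below 0 in all 26 windows of chromosome 4 and all 26 of chromosome 2, with replicate 3 nearest to 0 on chromosome 4.

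The organelles hold few tested loci. Of 37 plastid loci 3 fell and 0 rose by limma (median -0.01), and of 7 mitochondrial loci 2 rose and 0 fell (median 0.73). Libraries of this kind are made from RNA with poly(A) tails, so that organelle transcripts are sampled unevenly.

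Among genes of chromosomes 1, 3 and 5 the largest rise was that of BCAT-2, an enzyme of amino acid metabolism. BCAT-2, which transfers the amino group of leucine, isoleucine and valine, had normalized read counts of 947, 1006 and 258 in Type IV leaves, against 14.0, 30.0 and 20.5 in WT leaves. All 3 Type IV libraries were above WT, as the rule for naming the gene asked, and replicate 3 was the least raised. The log2 fold change was 4.86 (SE 0.46, limma, adjusted p = 8.94e-06). THA1, a threonine aldolase, had 150, 207 and 69.4 in Type IV, against 5.85, 11.8 and 6.02 in WT (log2 fold change 3.93, adjusted p = 6.94e-06). NIT2, a nitrilase, had 460, 337 and 64.5 in Type IV, against 16.4, 44.6 and 2.41 in WT (3.96, SE 0.90, adjusted p = 0.00397), with a narrow gap between the groups. NIT2 lies beside near-identical nitrilase genes, so its reads may be shared with them.

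GAT1_2.1, annotated as a glutamine amidotransferase of class I, had 73.2, 118 and 10.8 in Type IV and 0, 2.73 and 1.2 in WT (log2 fold change 4.54, adjusted p = 0.00051). GLYI4, of the glyoxalase I family that detoxifies methylglyoxal, had 57.3, 104 and 41.1 in Type IV and 0, 1.82 and 3.61 in WT (4.76, adjusted p = 5.8e-05). In both the WT level was a few reads, and the groups did not overlap, as the rule for naming them asked. AT1G56300, a chaperone with a DnaJ domain, rose by 4.52 (SE 0.41, adjusted p = 5.57e-06) and AT5G45990, annotated as a crooked neck protein of the splicing machinery, by 4.22 (SE 0.36, adjusted p = 4.44e-06).

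Transposable element genes stood among these rises. AT5G35935 had 209, 220 and 193 normalized read counts in Type IV, against 14.0, 9.09 and 4.81 in WT (log2 fold change 4.44, SE 0.25, adjusted p = 8.78e-08). It stood at 162 to 251 in Types I to III, and the difference of Type IV from their mean did not pass (log2 difference 0.08, adjusted p = 0.80). AT5G28335 had 59.7, 55.4 and 22.5 in Type IV, against 0, 0 and 3.61 in WT, which is 150 against 3 reads and a ratio of 43.3 (95% counting interval 14.5 to 212, counting error only). Elements of this kind have copies elsewhere in the genome, and how reads with several matches were counted is not given in the sources used here.

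The largest falls of the comparison were 2 genes with few reads in each mutant library. ASP2 (chromosome 5, 6597971 to 6601971), an aspartate aminotransferase of the cytosol, had 7.96, 4.26 and 3.91 in Type IV leaves, against 800, 595 and 619 in WT leaves (log2 fold change -6.76, SE 0.37, adjusted p = 7.21e-08). AT5G24240, annotated as a phosphatidylinositol 3- and 4-kinase with a ubiquitin domain, had 2.39, 3.19 and 9.78 in Type IV and 510, 288 and 272 in WT (-6.00, adjusted p = 9.9e-06). Types I to III stood at 2.33 to 7.05 for ASP2 and 0 to 8.12 for AT5G24240, and neither gene passed the test between Type IV and their mean (adjusted p = 0.51 and 0.91). MRD1, named for its lower transcript in a methionine-overproducing mutant, had 21.5, 20.2 and 19.6 in Type IV, against 263, 350 and 335 in WT (-3.88, adjusted p = 0.000208). For MRD1 Type IV was above the log-scale mean of Types I to III (log2 difference 2.08, adjusted p = 0.0044), with Type III at 14.4 to 23.4 around Type IV and Types I and II at 0 to 5.03.

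FTM1, a stearoyl-ACP desaturase, fell by 3.03 on the log2 scale, AT5G26220 (GGCT2;1, which degrades glutathione) by 2.58 and AT3G54830, an amino acid transporter of the membrane, by 2.55. AT3G55646, with no annotated function, fell by 2.64. AT3G23510, a cyclopropane-fatty-acid synthase, fell by 2.38, at 8.76, 8.52 and 50.9 in Type IV and 94.7, 98.2 and 71.0 in WT. Replicate 3 was nearest to WT in that gene and farthest in AT5G26220, so it was not nearer to WT throughout. These 5 genes had adjusted p of 0.00557 or less, and the 20 genes named by size on chromosomes 1, 3 and 5 remained past the threshold with any 1 of the 6 libraries left out.

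On chromosome 4 the largest rises ran against the shift of their chromosome. SEN1, a marker of dark-induced senescence, had 4193, 6552 and 2518 in Type IV leaves, against 122, 981 and 815 in WT leaves (log2 fold change 3.15, SE 0.62, adjusted p = 0.00158). AGL19, a MADS-box promoter of flowering, had 58.1, 47.9 and 42.1 in Type IV, against 2.34, 11.8 and 2.41 in WT (3.25, adjusted p = 4.41e-05). In both, the lowest Type IV library was above the highest WT library, as the rule for naming them asked. UMAMIT33, of the amino acid transporter family UMAMIT, rose by 3.93 (SE 0.69, adjusted p = 0.000755), MIOX4, a myo-inositol oxygenase, by 3.91 (SE 0.89, adjusted p = 0.00404) and the transposable element gene AT4G01980 by 3.56.

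The largest falls on chromosome 4 went well past the chromosome's median. AT4G13575 (7890249 to 7893761), with no annotated function, had 126, 130 and 150 in Type IV, against 1004, 1096 and 974 in WT (log2 fold change -2.92, SE 0.10, adjusted p = 5.25e-10). ELIP2, which protects the thylakoid under strong light, had 10.3, 6.39 and 7.82 in Type IV, against 53.8, 93.7 and 84.2 in WT (-3.07, adjusted p = 0.000768). Both genes were tightly grouped in Type IV and far from WT. LDOX, which makes anthocyanidins, had 54.9, 42.6 and 35.2 in Type IV, against 351, 272 and 223 in WT (-2.64, adjusted p = 7.04e-05). BGLU47, a beta-glucosidase, fell by 2.45 (adjusted p = 7.08e-05). ACD6, an ankyrin protein that promotes salicylic acid defence, had 256, 263 and 1334 in Type IV and 5500, 1993 and 2025 in WT (-2.65, SE 0.57, adjusted p = 0.00296), with both libraries that stand apart at the high end.

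On chromosome 2 the transposable element gene AT2G22710 had 52.5, 52.2 and 61.6 in Type IV, against 0, 1.82 and 2.41 in WT (log2 fold change 4.73, adjusted p = 1.88e-05). AT2G01020, annotated as 5.8S ribosomal RNA, rose by 4.00 (adjusted p = 2.33e-05), and as one of many copies of the ribosomal DNA its level depends on how reads with several matches were counted. HIS1-3, a linker histone induced by drought, had 138, 148 and 90.9 in Type IV, against 14.0, 17.3 and 13.2 in WT (2.97, adjusted p = 9.68e-06). AT2G33830, of the dormancy and auxin associated family, rose by 2.91 and MIOX2, another myo-inositol oxygenase, by 2.68. MIOX2 was the named gene here that rested on single libraries, with adjusted p = 0.0186 in all, 0.0623 without Type IV replicate 2 and 0.0733 without WT replicate 1.

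Among falls on chromosome 2, ACO1, an enzyme of the last step of ethylene synthesis, had 6.37, 6.39 and 10.8 in Type IV, against 47.9, 29.1 and 46.9 in WT (log2 fold change -2.26, adjusted p = 0.000181). GH9B8, a glycosyl hydrolase of the cell wall, fell by 2.03 and EXPB1, an expansin that loosens walls, by 1.90. GLR2.7, a glutamate receptor-like channel, fell by 1.85 and AT2G36970, a UDP-glycosyltransferase, by 2.16. The 3 libraries of each group were separate for all 10 named genes of chromosome 2, as the rule for naming them asked.

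Counts over the lists of genes below are to be read beside the shares of all tested loci, 16% risen and 17% fallen, which differ by chromosome. Genes of the circadian clock were mostly higher in Type IV leaves. The Arabidopsis clock is a loop of transcription factors in which the morning MYB factors CCA1 and LHY repress evening genes and the pseudo-response regulators (PRR genes) repress them in turn. Of 21 tested clock genes 12 rose and 1 fell, with a median log2 fold change of 0.86, where the median of all loci was 0.00. Scaled on AT1G, AT3G and AT5G genes, 11 rose and 3 fell. Of the 14 on chromosomes 1, 3 and 5, 8 rose and 0 fell by limma, and of the 6 on chromosome 2, 3 rose and 1 fell.

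The evening genes gave the largest values. FKF1, a blue-light receptor that promotes flowering in long days, had 25.5, 25.5 and 11.7 in Type IV leaves and 0 in each WT library, which is at least 19.1-fold higher against a floor of 3 reads over the WT libraries. PRR5 had 373, 221 and 71.4 in Type IV, against 11.7, 10.0 and 9.63 in WT (log2 fold change 4.00, SE 0.48, adjusted p = 5.15e-05). PRR3 had 40.6, 46.8 and 21.5 in Type IV, against 5.85, 4.55 and 3.61 in WT (2.67, adjusted p = 0.000388). In these 3 genes replicate 3 was the lowest Type IV library and all were above WT.

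GI (GIGANTEA, which acts with FKF1) had 382, 347 and 243 in Type IV, against 64.3, 65.5 and 72.2 in WT (log2 fold change 2.23, adjusted p = 2.75e-05). GRP7, an RNA-binding clock output, had 1137, 860 and 1267 in Type IV, against 166, 202 and 231 in WT (2.44, SE 0.18, adjusted p = 2.04e-06), and its relative GRP8 rose by 0.86 (adjusted p = 0.00715). TOC1 rose by 0.97, PRR7 by 1.04, LUX by 1.17 and ELF3 by 0.84, each with adjusted p of 0.00123 or less. CCA1 was the member that fell, at 1827, 1760 and 2218 in Type IV and 3303, 2724 and 2773 in WT (-0.60, adjusted p = 0.00172). LHY was not among the tested clock genes. The call of PRR9 (0.93, adjusted p = 0.0147) was lost without Type IV replicate 2 or WT replicate 2 (adjusted p = 0.0588 and 0.0697), and that of ZTL (0.26, adjusted p = 0.0161) without Type IV replicate 1 or WT replicate 2 (0.075 and 0.0613).

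**Figure D4:**
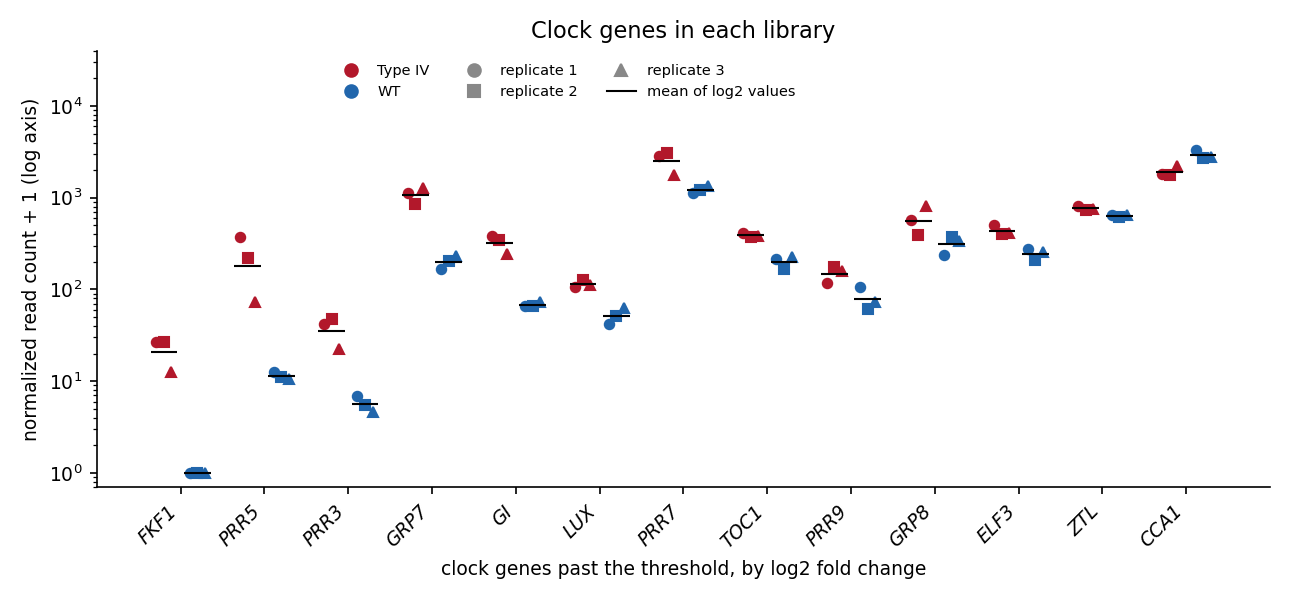
Normalized read count plus 1 (vertical axis, logarithmic) of the 13 clock genes past the threshold in each Type IV library and each WT library, ordered by log2 fold change, with a bar at the mean of the log2 values. FKF1 stands at 25.5, 25.5 and 11.7 in Type IV and at 0 in WT, and CCA1 is the one gene with Type IV below WT.

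Type III leaves had higher levels still for most of these genes. FKF1 stood at 194 to 252 in Type III, against 0 to 1.01 in Types I and II, and PRR5 at 756 to 817 in Type III, against 5.01 to 29.1 in Types I and II. Of the 12 clock genes that rose against WT, 10 had every Type III library above every Type IV library. Against the mean of the log2 values of Types I to III, Type IV was higher for 9 of the 21 clock genes and lower for 0 (limma), beside 12.9% and 17.1% of all loci. At 6 of these 9 every Type III library was above every Type IV library, and at 5 the arithmetic mean of Types I to III was above that of Type IV. At 8 of the 9 every Type IV library was above every library of Types I and II. The difference of Type IV from Type III alone was not tested. The labels give no hour of harvest, and clock transcripts vary over the day, so the hour and the class cannot be told apart. RVE4, RVE6, RVE8, LNK1, LNK2, LKP2, ELF4 and CHE did not pass the threshold against WT.

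The evening element, AAAATATCT, is the sequence to which CCA1 and LHY bind in evening genes. It was searched on both strands (AAAATATCT or AGATATTTT) in the 300 bases before the annotated start of each gene in TAIR10.1, and was found for 6 of 21 clock genes (28.6%), against 765 of 27443 protein-coding genes (2.79%) and 517 of 16963 tested ones (3.05%). The 6 were GRP7, GRP8, FKF1, PRR5, TOC1 and LUX, all of which rose. The other 6 clock genes that rose, GI, PRR3, PRR7, ELF3, PRR9 and ZTL, had no match in this window, and neither had CCA1 or the 8 genes that did not pass the threshold. The windows of 4 of them are shown because the largest rises with a match lie there, with matches in capitals, each read 5′ to 3′ towards its gene: GRP7 from chr2:9266558-9266857 (minus strand), FKF1 from chr1:25508339-25508638 (plus strand), PRR5 from chr5:8358547-8358846 (minus strand) and LUX from chr3:17182742-17183041 (plus strand).
GRP7: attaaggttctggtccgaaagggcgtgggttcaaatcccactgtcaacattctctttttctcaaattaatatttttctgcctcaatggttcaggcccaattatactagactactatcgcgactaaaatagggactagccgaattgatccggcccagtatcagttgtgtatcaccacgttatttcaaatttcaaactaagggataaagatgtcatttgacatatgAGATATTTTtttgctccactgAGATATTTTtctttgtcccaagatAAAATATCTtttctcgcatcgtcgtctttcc
FKF1: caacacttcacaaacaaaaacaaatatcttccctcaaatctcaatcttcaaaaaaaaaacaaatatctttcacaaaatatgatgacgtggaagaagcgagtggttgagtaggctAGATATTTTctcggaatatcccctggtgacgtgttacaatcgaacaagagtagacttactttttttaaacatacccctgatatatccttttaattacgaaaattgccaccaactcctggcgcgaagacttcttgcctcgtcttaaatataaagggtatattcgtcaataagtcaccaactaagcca
PRR5: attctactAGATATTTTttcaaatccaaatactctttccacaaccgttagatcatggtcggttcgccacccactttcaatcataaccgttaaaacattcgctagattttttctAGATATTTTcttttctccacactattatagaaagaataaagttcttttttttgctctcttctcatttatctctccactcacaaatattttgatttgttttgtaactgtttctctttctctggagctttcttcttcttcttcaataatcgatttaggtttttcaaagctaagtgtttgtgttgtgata
LUX: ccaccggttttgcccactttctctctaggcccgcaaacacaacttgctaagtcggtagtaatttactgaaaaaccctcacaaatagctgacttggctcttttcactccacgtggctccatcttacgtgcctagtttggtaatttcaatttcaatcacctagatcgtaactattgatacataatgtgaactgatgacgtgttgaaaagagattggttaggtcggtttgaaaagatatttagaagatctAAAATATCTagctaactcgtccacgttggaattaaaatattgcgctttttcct
GRP7 holds 3 matches, PRR5 holds 2, and FKF1 and LUX hold 1 each.

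Genes for flavonoids, the phenolic pigments and sunscreens of the leaf, were mostly lower. Of 18 tested members 12 fell and 1 rose, with a median of -0.76, beside 17% and 16% of all loci. On chromosomes 1, 3 and 5, 9 of 14 fell, where 9.33% of all loci did. The anthocyanin branch held the largest falls: besides LDOX, the anthocyanin glycosyltransferase UF3GT had 11.1, 10.6 and 9.78 in Type IV leaves, against 65.5, 58.2 and 49.3 in WT leaves (log2 fold change -2.34, adjusted p = 0.0007). TT7, which hydroxylates flavonoids, fell by 1.89 (adjusted p = 0.00109). Outside the list, AT5MAT, which adds malonyl groups to anthocyanins, was among the largest falls (log2 fold change -2.27, adjusted p = 0.00848). TT8, a bHLH regulator of the branch, fell by 1.75, but its call was lost without Type IV replicate 3 (adjusted p = 0.0777) or WT replicate 2 (0.0553). CHS, the entry enzyme, fell by 0.99 and its call was lost without Type IV replicate 2 (adjusted p = 0.0518). MYBL2, a repressor of anthocyanin genes, was the member that rose, by 0.66, a call lost without Type IV replicate 1 (0.0664) or WT replicate 1 (0.0557). Without Type IV replicate 3, 9 members fell and 1 rose.

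Aliphatic glucosinolate genes, which make defence compounds from methionine, gave 7 fallen and 0 risen of 20 tested by limma (median -0.52), beside 17% and 16% of all loci. CYP83A1 had 1070, 764 and 1036 in Type IV and 2632, 2102 and 1857 in WT (log2 fold change -1.20, adjusted p = 0.000864), and BAT5, a bile acid transporter homologue of the plastid, fell by 1.34. BCAT3, a transaminase of the pathway, fell by 0.69 (adjusted p = 3.23e-05) and UGT74C1 by 0.59. CYP83A1 and BAT5 lie on chromosome 4 and UGT74C1 on chromosome 2. On chromosome 4, 2 of 2 aliphatic members fell and on chromosome 2, 2 of 3, where 48.9% and 21.1% of all loci did. On chromosomes 1, 3 and 5, 3 of 15 fell (median -0.36), where 9.33% of all loci did. Indole glucosinolate and camalexin genes gave 1 risen and 1 fallen of 18 (median -0.15), beside 16% and 17% of all loci. These were ASA1 (0.55) and, on chromosome 4, CYP81F3 (-1.33). The call of ASA1 was lost without Type IV replicate 1 (adjusted p = 0.102) or WT replicate 3 (0.0875).

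Genes of the 26S proteasome, which degrades proteins marked with ubiquitin, were higher. Of 43 tested subunits 21 rose and 4 fell, with a median of 0.28, beside 16% and 17% of all loci. The split followed the chromosome: 20 rose and 0 fell (limma) of 32 on chromosomes 1, 3 and 5, where 20.2% of all loci rose and 9.33% fell. On chromosome 2, 1 rose and 1 fell of 5, and on chromosome 4, 0 rose and 3 fell of 6, where 48.9% of all loci fell. RPT5B, an ATPase of the base, had 478, 402 and 438 in Type IV, against 217, 225 and 232 in WT (log2 fold change 0.96, SE 0.11, adjusted p = 2.82e-05). The ATPases RPT6B and RPT3 rose by 0.93 and 0.88, and the core subunit PBB2 by 0.67, each with separate groups. They and RPT5B were named for the lowest p-values of the list, so this separation is no added support. Scaled on AT1G, AT3G and AT5G genes, 16 rose and 5 fell. Type IV was above the log-scale mean of Types I to III at 25 of the 43 and below at 4. Of all loci 12.9% were above and 17.1% below, and of AT1G, AT3G and AT5G loci 17.8% and 5.97%. That list count is on the deposited scale alone, and the counts of this comparison over all loci depend on the scaling.

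Of 31 tested genes of ubiquitin-conjugating enzymes other than UBC22, 11 rose and 3 fell (median 0.20), beside 16% and 17% of all loci. On chromosomes 1, 3 and 5, 10 of 24 rose and 0 fell by limma, where 20.2% of all loci rose and 9.33% fell. With scaling on AT1G, AT3G and AT5G genes 7 of the 31 rose and 4 fell, so the balance of rises over falls depends on the scaling. UBC2, one of the enzymes for histone H2B, had 781, 821 and 745 in Type IV and 495, 486 and 498 in WT (log2 fold change 0.66, adjusted p = 0.00051). UBC5 rose by 0.70 (adjusted p = 0.00496) and UBC27 by 0.50 (adjusted p = 0.000702). Of 17 subunits and activators of the anaphase-promoting complex 4 fell and 0 rose by limma (median -0.13), a share of falls near the 17% of all loci, and 2 of the 4 lie on chromosome 4, where 48.9% of all loci fell. APC13 fell by 0.85, APC4 by 0.93, CCS52A1 by 0.50 and APC6 by 0.46. Each of these 4 calls was lost without some single library, with adjusted p up to 0.116.

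Of 33 cell cycle genes 11 fell and 1 rose (median -0.25), beside 17% and 16% of all loci, and 6 of the 11 are among the 10 on chromosome 2, where 21.1% of all loci fell. They include subunits of the MCM helicase, which opens DNA for replication. MCM4 had 109, 111 and 115 in Type IV, against 216, 208 and 189 in WT (log2 fold change -0.86, adjusted p = 0.000221), and MCM6 had 54.1, 67.1 and 93.9, against 154, 185 and 142 in WT (-1.18, adjusted p = 0.00177). MCM7 fell by 1.09 and PCNA2, the sliding clamp of replication, by 0.59. MCM4 and PCNA2 lie on chromosome 2, MCM7 on chromosome 4 and MCM6 on chromosome 5. The groups were separate in all 4, which were named for the lowest p-values of the list, so this is no added support. On chromosomes 1, 3 and 5, 4 of 19 cell cycle genes fell and 1 rose (median 0.05), where 9.33% and 20.2% of all loci did. With each library centred per chromosome, 10 of the 33 fell and 1 rose.

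Of 15 tested leaf margin and boundary genes 4 rose and 2 fell (median 0.23), beside 16% and 17% of all loci. Scaled on AT1G, AT3G and AT5G genes, 4 rose and 3 fell (median 0.13). DPA4, a repressor of CUC2 at the margin, had 43.0, 25.5 and 23.5 in Type IV, against 7.02, 10.0 and 10.8 in WT (log2 fold change 1.59, adjusted p = 0.00626). The KNOX gene KNAT2, normally low in leaves, had 19.1, 19.2 and 32.3 in Type IV, against 9.35, 6.36 and 2.41 in WT (1.90, adjusted p = 0.0049). The homeobox gene ATH1 fell by 0.81 and lies on chromosome 4, where 48.9% of all loci fell. KNAT6 rose by 0.72 (adjusted p = 0.0235), a call lost without either Type IV replicate 1 or 2 or WT replicate 2 or 3 (up to 0.112).

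Of 8 CIN-type TCP factors, which limit growth at the leaf margin, 2 fell and 0 rose by limma (median -0.23). TCP10, a target of miR319, had 276, 302 and 316 in Type IV, against 430, 651 and 569 in WT (log2 fold change -0.86, adjusted p = 0.000251), and TCP2 fell by 0.61 (adjusted p = 0.00215). Both lie on chromosomes with a shift, TCP10 on chromosome 2 and TCP2 on chromosome 4. Growth-regulating factors and their partners gave 7 risen and 2 fallen of 14 (median 0.30), beside 16% and 17% of all loci. KLU, a cytochrome P450 that prolongs organ growth, had 165, 126 and 113 in Type IV and 53.8, 45.5 and 62.6 in WT (adjusted p = 0.000332). GRF1 and GRF3, both on chromosome 2, rose by 0.76 and 0.68. ANT, which maintains growth of organs, fell by 0.80 and lies on chromosome 4, where 48.9% of all loci fell.

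Phase change genes (SPL and AP2-like) gave 4 risen and 1 fallen of 14 (median 0.28), with SPL3 up by 0.87 and AP2, on chromosome 4, down to 102, 79.8 and 118 in Type IV against 158, 168 and 165 in WT. With scaling on AT1G, AT3G and AT5G genes that list gave 2 risen and 2 fallen. Leaf polarity genes gave 2 risen and 3 fallen of 15 (median -0.03). ETT rose by 0.66 (adjusted p = 0.00113), and ATHB-8 and YAB3, both on chromosome 4, fell by 0.88 and 0.81.

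Flowering genes gave 7 risen and 2 fallen of 17 (median 0.43), beside 16% and 17% of all loci. Besides AGL19, FUL, a MADS-box gene of the floral transition, had 67.7, 62.8 and 68.5 in Type IV, against 31.6, 17.3 and 19.3 in WT (log2 fold change 1.55, adjusted p = 0.000273). FLC, the MADS-box repressor of flowering, had 269, 167 and 127 in Type IV, against 49.1, 82.7 and 73.4 in WT (1.41, SE 0.31, adjusted p = 0.0032). Promoters and repressors of flowering thus rose side by side. AGL24 fell by 0.66 (adjusted p = 0.000827) on chromosome 4, and the FLC relative MAF2 rose by 0.56. Of 18 flower and inflorescence markers 6 were at 0 in every Type IV library and 7 in every WT library, with sums of 90.9 to 110 in Type IV and 37.3 to 54.2 in WT. Of the 3 tested, SPL8 rose by 1.42 (adjusted p = 0.000749), and SPL8 makes up most of the sum. STK, AMS and MS1 were at 0 in both groups, and the part of flower tissue in the result was not tested.

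Nuclear genes of the light reactions and Rubisco gave 11 fallen and 1 risen of 33 (median -0.10), beside 17% and 16% of all loci, and all 4 on chromosome 4 fell, where 48.9% of all loci did. On chromosomes 1, 3 and 5, 6 of 26 fell, where 9.33% of all loci did. PETC, the Rieske protein of the cytochrome complex, had 8351, 8407 and 9381 in Type IV, against 14306, 16058 and 15098 in WT (log2 fold change -0.80, adjusted p = 7e-05), and the antenna gene LHCB5 fell by 0.71. Both lie on chromosome 4. RBCS1B, a Rubisco small subunit on chromosome 5, had 7697, 6280 and 7635 in Type IV and 13291, 19655 and 17671 in WT (-1.21, adjusted p = 0.00118). It lies beside near-identical copies, and its reads may be shared with them. Of 23 chlorophyll synthesis genes 5 fell and 2 rose (median -0.07), with CHLI1 down by 0.67 on chromosome 4. Of the 14 mesophyll genes 5 fell and 0 rose by limma (median -0.28), beside 17% and 16% of all loci. On chromosomes 1, 3 and 5, 3 of 11 mesophyll genes fell, where 9.33% of all loci did. Among the 5, CA1, a carbonic anhydrase on chromosome 3, fell by 0.74. FBA2, on chromosome 4, fell by 1.00 and RCA, Rubisco activase, on chromosome 2, by 0.57.

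Abscisic acid and cold genes gave 9 risen and 0 fallen of 23 by limma (median 0.68), beside 16% and 17% of all loci. RAB18, a dehydrin, had 276, 246 and 229 in Type IV leaves, against 106, 86.4 and 96.3 in WT leaves (log2 fold change 1.37, adjusted p = 0.000154). RD22, induced by drought, rose by 0.99 and P5CS1, which makes proline, by 1.21. RD26 and NCED3 rose by 0.84 and 0.79, calls lost without Type IV replicate 2 (adjusted p = 0.114 and 0.202) among other libraries. Senescence genes gave 4 risen and 1 fallen of 18 (median 0.27). Besides SEN1, GDH2, a glutamate dehydrogenase, had 2722, 3371 and 920 in Type IV, against 247, 728 and 629 in WT (2.07, adjusted p = 0.00289), and the NAC factor ORE1 rose by 1.66 and PPH, which degrades chlorophyll, by 0.72.

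Defence lists moved with single libraries. Over 21 salicylic acid genes the median log2 difference from WT was 0.13, -0.13 and 1.45 in Type IV replicates 1, 2 and 3, while WT replicate 1 stood 1.76 above the other WT libraries and WT replicates 2 and 3 at -0.85 and -0.71. PAD4 and SAG101, partners in basal immunity, rose by 1.33 and 0.66 and ACD6 fell. The calls of PAD4 and SAG101 were lost without Type IV replicate 3 (adjusted p = 0.13 and 0.109), and without that library 0 rose and 2 fell by limma. Against the log-scale mean of Types I to III 13 of the 21 were higher and 0 lower by limma, beside 12.9% and 17.1% of all loci. That count includes Type IV replicate 3, the highest Type IV library in this list, and is not given without it.

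Jasmonate genes showed the other order, with list medians of 0.95, 1.53 and -0.04 in Type IV replicates 1, 2 and 3 and 0.70, 0.30 and -1.04 in WT. Of 20 tested 3 rose and 1 fell (median 0.83), and without Type IV replicate 3 the counts were 6 and 1. Against the log-scale mean of Types I to III 0 were higher and 3 lower by limma, beside 12.9% and 17.1% of all loci. VSP1 had 2283, 791 and 561 in Type IV, against 255, 234 and 25.3 in WT (log2 fold change 3.11, SE 0.89, adjusted p = 0.0151), and MYC2 and OPR3 rose by 1.49 and 1.19. All 3 calls were lost without Type IV replicate 1 (adjusted p = 0.0757, 0.093 and 0.0769). JMT, the jasmonate methyltransferase, fell by 1.28 (adjusted p = 0.0022). Of 13 ethylene and jasmonate-ethylene defence genes 1 rose and 0 fell by limma, EIN3 by 0.38 (median 0.16).

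Further lists held fewer calls, to be read beside the 16% risen and 17% fallen of all loci. Heat shock genes gave 1 risen of 11 and 0 fallen by limma (median 0.35), HSFB2A by 0.99, lost without WT replicate 2 (adjusted p = 0.0542). Auxin early response genes gave 2 risen and 3 fallen of 29 (median -0.02). On the log2 scale GH3.5, on chromosome 4, was up by 0.78 and IAA13, on chromosome 2, down by 0.52. DNA methylation and silencing genes gave 7 risen and 4 fallen of 29 (median 0.16). DML3, a demethylase on chromosome 4, had 19.9, 21.3 and 27.4 in Type IV and 111, 79.1 and 77.0 in WT (log2 fold change -1.91, adjusted p = 2.03e-05). CMT2, also on chromosome 4, fell by 0.67 and DDM1, on chromosome 5, by 0.75. On chromosome 4, 2 of 3 members fell and 0 rose by limma, where 48.9% of all loci fell. On chromosomes 1, 3 and 5, 6 of 20 rose and 2 fell, where 20.2% and 9.33% of all loci did. With scaling on AT1G, AT3G and AT5G genes that list gave 3 risen and 6 fallen. Trichome and guard cell markers gave 1 risen and 5 fallen of 19 (median -0.34), with sums of 1217 to 1457 in Type IV and 1597 to 1629 in WT. Among them OST1, a kinase of stomatal closure on chromosome 4, fell by 0.90. Of 4 tested root markers SHR, on chromosome 4, fell by 0.95 and 0 rose by limma (median -0.19).

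**Figure D5:**
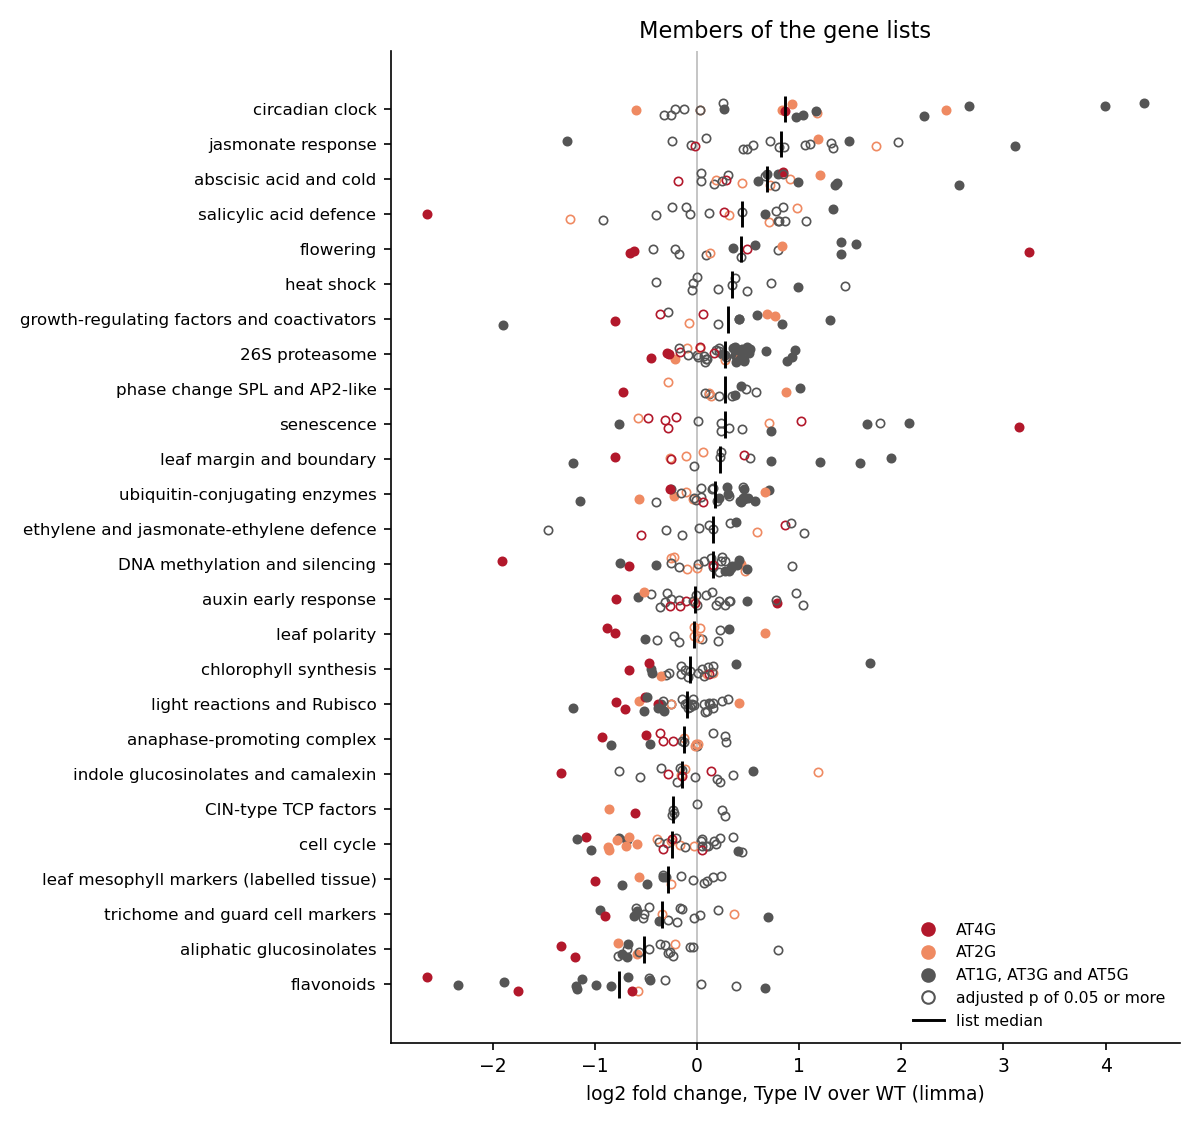
Log2 fold change of Type IV over WT (horizontal axis, limma) of each tested member of the lists with at least 8 tested genes, ordered by list median (bar); filled points passed an adjusted p of 0.05 and colours give the chromosome set. Clock genes lie highest, with a median of 0.86, flavonoid genes lowest, with -0.76, and AT4G members lie mostly on the left of their lists.

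Over all 29 lists 534 distinct genes were tested, of which 105 rose and 91 fell. With scaling on AT1G, AT3G and AT5G genes these counts were 79 and 111.

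Type IV was then set against the mean of the log2 values of the other 3 ubc22 classes, to show where it differs from mutants of the same parent. There 2274 loci were higher (12.9%) and 3013 lower (17.1%). Of AT4G loci 39 were higher and 1325 lower, of AT2G loci 50 and 951, and of AT1G, AT3G and AT5G loci 2179 and 729. Type II libraries have raised AT2G genes and Type III libraries raised AT3G genes, which enter these counts: 246 AT3G loci were higher and 393 lower, while AT1G loci gave 985 and 181 and AT5G loci 948 and 155. The split depends on the scaling, with 1237 higher and 4311 lower when scaled on AT1G, AT3G and AT5G genes and 3366 higher and 2111 lower when scaled to library totals. It depends on single libraries too, with 1138 higher and 1896 lower without Type IV replicate 1 and 1512 higher without Type IV replicate 2.

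Of genes named for this comparison, AT4G13575 was lower at 126 to 150 in Type IV against 275 to 1172 over the 9 other ubc22 libraries (log2 difference -2.27, SE 0.08, adjusted p = 1.03e-09). FLC was higher, at 127 to 269 in Type IV against 5.17 to 67.7 (2.71, adjusted p = 1.4e-05), so that Type IV was the highest group in FLC of the 5. AT2G01020 (2.80) and AT5G45990 (2.66) were higher against both WT and the other classes. AT5G09290, an inositol monophosphatase, was higher by 3.12 (adjusted p = 0.00036), and against WT it had adjusted p = 0.0131, lost without Type IV replicate 3 (0.0542) or WT replicate 2 (0.0685). BIP3, a chaperone of the endoplasmic reticulum induced by unfolded proteins, had 168, 95.8 and 603 in Type IV and 5.10 to 74.2 in the other classes (3.03, adjusted p = 0.0029), but 265, 30.0 and 57.8 in WT, and did not pass there (adjusted p = 0.16).

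Lower against the other classes were also AT5G26260, a TRAF-like protein (log2 difference -2.56, adjusted p = 0.0018), AT5G19100, an aspartyl protease (-2.11, adjusted p = 7.79e-05), AT3G55646 (-1.93) and AT3G54830 (-1.91). AT5G26260 had 2.39, 2.13 and 2.93 in Type IV and 5.85, 2.73 and 3.61 in WT, and did not pass against WT (adjusted p = 0.553). AT5G19100 passed against WT (-1.08, adjusted p = 0.0144) but not without WT replicate 2 (0.0698).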

How the data were processed

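Total RNA of leaves (TRIzol) was made into libraries with the TruSeq RNA kit v2, per the labels' protocols, a kit that marks no strand, so a gene and an overlapping antisense gene cannot be told apart. The submitters' processing notes name STAR 2.4.0j, StringTie 1.0.3, HTSeq 0.6.0, DESeq2 1.12.4 and the TAIR10 build, with no role given. The deposited table holds signal values that the authors normalized per library. In each library 100% of values are whole multiples of 1 step within 1e-06, and that step equals 1 over the size factor computed by median of ratios, which gives back the whole reads. For Type I replicate 1 and Type II replicate 1 the size factor is so near 1 that the step cannot be told from rounding. Their reads enter the depths, read shares, chi-square values and count tests. They also enter the fits scaled by TMM, by library totals and on AT1G, AT3G and AT5G genes. The main fit uses the deposited values. The 2 columns with a slip in their name were mapped to the nearest title. Of 32580 AGI codes 31881 were found in the RefSeq table, and 230 tested loci share a code with another tested locus.

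Values are normalized read counts. Logged values, log2(value + 1), were tested in R 4.3.3 with limma 3.58.1 and its trend option, with all 15 libraries in 1 fit and p-values adjusted by Benjamini-Hochberg over 17595 loci with a mean of at least 10. Fold changes are on that scale, which understates changes of low genes. Just inside the minimum lay CRF3 (mean of all 15 libraries 10.0, 6.78 in Type IV, 10.9 in WT) and just outside it AT4G17860 (6.18 in Type IV, 17.3 in WT). No class of loci or list was given a test. A chromosome's values describe the same libraries as its calls, and genes of a chromosome are not replicates.

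The genes named are UBC22, the 10 risen and 10 fallen on chromosomes 1, 3 and 5 and the 5 and 5 on chromosomes 4 and 2 with the largest fold change (adjusted p under 0.05, mean of at least 20 in the 6 compared libraries, no overlap of Type IV with WT), the 5 largest each way against Types I to III, and in each list the 4 lowest p-values at most. List members named beyond these were chosen after their values were seen. The classes, lists and members were chosen with earlier results of these data known. Of 657 list entries 646 matched 1 AGI code by symbol, synonym or hand. Alternatives were edgeR 4.0.16 and DESeq2 1.42.0 on recovered reads, other scalings, filters and pseudocounts, the 6 libraries alone, and leaving out each library. The fit was checked on simulated counts. How reads with several matches were counted is not given in the sources used here, so genes with near-identical copies are uncertain. Values of 1 list member are not reported here.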

Additional observations from a re-analysis of the deposited data

Results flagged for a closer look

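Values of Type IV that differ from the mean of Types I, II and III by limma's test (adjusted p under 0.05) were set out for a second look. Over all loci 2274 were higher and 3013 lower in Type IV. Of 41 genes named for Type IV against WT, 26 passed this test and 15 did not, where 30% of all loci passed it. All of the 41 but UBC22 had been chosen by the size of their change against WT.

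Higher in Type IV than each of the 9 other ubc22 libraries were AT5G45990 (log2 difference from the log-scale mean 2.66), the linker histone gene HIS1-3 (1.5), the transposable element gene AT2G22710 (3.33) and the ribosomal RNA locus AT2G01020 (2.80). Lower than each of the 9 were AT4G13575 (-2.27), AT3G55646 (-1.93), AT5G26220 (-1.91) and AT3G54830 (-1.91), all of which fell against WT as well.

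The other 18 of the 26 overlapped with the other classes, or were passed by them, and in all 18 it was Type III alone that did so, with Types I and II apart from Type IV. The difference of Type IV from Type III alone was not tested. Above the log-scale mean of the 3 classes were BCAT-2 (2.69), THA1 (2.62), GAT1_2.1 (2.36), GLYI4 (2.73), MRD1 (2.08) and the transposable element gene AT4G01980 (1.62). BCAT-2 stood at 258 to 1006 in Type IV, against 722 to 990 in Type III and up to 56.3 in Types I and II. Every Type III library was above every Type IV library for PRR5 (1.83), AT1G56300 (1.46) and AT5G28335 (2.03). AT1G56300 stood at 79.2 to 123 in Type IV, against 573 to 662 in Type III, with Types I and II below both, and for AT1G56300 and PRR5 the arithmetic mean of the 3 classes was above that of Type IV.

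Below the log-scale mean were the anthocyanin genes UF3GT (-1.84), LDOX (-1.82) and AT5MAT (-1.52), the cell wall genes GH9B8 (-1.67) and EXPB1 (-1.45), ACO1 (-1.94), BGLU47 (-1.27), AT2G36970 (-1.17) and FTM1 (-1.48). Type III reached into the range of Type IV or below it in all 9 of these. UF3GT stood at 9.78 to 11.1 in Type IV, against 0.90 to 7.13 in Type III and 86.9 to 150 in Types I and II. LDOX stood at 35.2 to 54.9 in Type IV, against 9.93 to 39.4 in Type III and 358 to 483 in Types I and II.

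Loci without an AGI code, which enter no class, held 0.26%, 0.174% and 0.295% of reads in the Type IV libraries, against 0.07%, 0.0737% and 0.0947% in the WT libraries. Most of these reads fall in 1 unnamed locus, at 24901, 16373 and 27785 normalized read counts in Type IV and 5297, 5884 and 8136 in WT. The groups do not overlap there, and no test was run on the shares.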

How the results depend on the processing

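Among count tests on recovered reads, edgeR gave 2805 loci higher and 2998 lower (5665 shared with the 5815 limma calls) and DESeq2 2658 and 2878 (5372 shared). Leaving out 1 library of the 6 gave 1891 to 2822 higher and 2170 to 3005 lower, with the lowest counts without Type IV replicate 1. UBC22 stayed lower and past the threshold in all alternatives run, at -1.30 to -0.98 with a library left out. Counts that moved by over 1.5 times were these. Fitted with the Type IV and WT libraries alone, AT4G loci higher numbered 53. After centring libraries chromosome by chromosome, which removes a chromosome's shift by construction, AT4G loci numbered 345 higher and 353 lower, AT2G loci 344 lower, AT1G, AT3G and AT5G loci 1626 higher, and against Types I to III 1048 were higher and 1258 lower. Scaled on AT1G, AT3G and AT5G genes, 1711 of their loci were lower, and against Types I to III 1237 loci were higher. With a library left out, AT1G, AT3G and AT5G loci higher ranged from 1644 (without Type IV replicate 1) to 2477, and against Types I to III 1138 to 2302 were higher and 1896 to 3000 lower. The AT2G shift was -0.14 relative to all other nuclear chromosomes. The baseline of AT1G and AT5G genes alone was chosen after seeing the data. Of 2421 values of 144 named genes under alternatives, 2328 kept direction and call, 81 lost the call, 10 gained one and 2 turned sign: the root marker PYK10, not past the threshold in any of them, at 0.19 without Type IV replicate 3 and 0.14 without WT replicate 2, against -0.08 with all libraries (-0.31 to 0.19 with 1 left out). For moved counts other than those set by construction the cause was not tested. No paired analysis was possible because the labels give no replicate numbers: those used here follow the order of the samples, only name a library and pair none. Low genes are limited by depth, and 3 libraries a group limit all calls.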
